A study of Mus musculus with 6 samples.

Results

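Protocadherins are the largest group of the cadherin superfamily, the calcium-dependent adhesion proteins of the cell surface. The genes described here were all those whose gene name begins with Pcdh in the deposited tables, which gave 70 of 49671 genes, and membership rested on the name alone. The group was put forward with RvD1-against-vehicle values of these libraries already known, so every difference below is a description of these 6 libraries. By symbol, 14 belonged to the alpha cluster, 22 to the beta cluster, 22 to the gamma cluster and 12 were non-clustered. The symbol Pcdha11 stands under 2 gene identifiers, so that 70 identifiers carried 69 symbols.

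Gene expression was measured by RNA sequencing in muscle stem cells (MuSCs), the Pax7-expressing progenitors that rebuild injured myofibers, sorted from regenerating mouse muscle on day 3 after injury. All mice were female C57BL/6 of 4 to 6 months, and all had both tibialis anterior muscles injected with 50 µL of 1.2% barium chloride, which kills myofibers and spares many stem cells. The RvD1 group (3 mice) was given 100 ng of resolvin D1, a lipid mediator made from docosahexaenoic acid that limits neutrophil recruitment, by daily intraperitoneal injection from shortly before injury, and the vehicle group (3 mice) was given 0.1% ethanol. Each library held cells pooled from the 2 tibialis anterior muscles of 1 mouse, gated on β1-integrin and CXCR4 and against Sca-1, CD11b, CD45 and Ter119, to which the labels add CD31. No uninjured or untreated muscle was among these libraries.

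In mammals, the clustered protocadherin genes lie side by side on a single chromosome. Each alpha and gamma gene contributes a large variable exon with its own promoter, and that exon is spliced to constant exons shared by the whole cluster, whereas most beta genes are complete in their own exon. In neurons each cell switches on its own combination of variable exons, while the C-type genes at the end of the alpha and gamma clusters are used more uniformly, and the proteins recognize the same isoform on a neighboring cell. The non-clustered genes stand alone in the genome. Most of them are delta-protocadherins, which act in cell sorting and migration, and some of the delta2 type bind the WAVE complex that nucleates actin.

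The tables gave expected counts, which are RSEM's estimate of the reads that came from each gene. RvD1 libraries totaled 17962025 to 28149176 counts and vehicle libraries 16148026 to 18755643. At these totals, 3 counts correspond to 0.107 to 0.186 CPM, counts scaled to a fixed library total. Levels within a gene are given below in CPM with TMM library sizes, levels between genes in TPM, which also allow for transcript length, and errors are SD over the 3 mice of a group unless named as standard errors (SE).

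The myogenic markers, a list drawn up to describe the sorted cells, were present in every library. Summed TPM of 12 myogenic genes was 3472 to 4281 with RvD1 and 3243 to 3602 with vehicle. Of the gate's negative markers, Ptprc (CD45) was at 0.08 to 1.13 TPM and Pecam1 (CD31) at 0.25 to 3.61 TPM. Ly6a (Sca-1) was higher, at 17.3 to 39.7 TPM, a range that holds the mean levels of Pcdh18 and Pcdh7 given below. The library of RvD1 replicate 1 stood apart in markers of some other cell types. Its summed level was the highest of the 6 for 8 fibro-adipogenic genes (1071 TPM against 456 to 575 in the others), for 6 smooth muscle and pericyte genes (581 against 285 to 430) and for 8 Schwann cell and glial genes (81.7 against 38.1 to 59.2). Of the single genes, 4 fibro-adipogenic, 4 smooth muscle and pericyte and 6 Schwann cell and glial genes were highest in that library. The other fibro-adipogenic genes were highest in RvD1 replicate 3 (Pdgfra), vehicle replicate 1 (Ly6a and Pi16) or vehicle replicate 3 (Col15a1). Leukocyte and endothelial sums were highest in vehicle replicate 3 (93.6 and 32.6 TPM against 66.4 and 25.0 TPM in RvD1 replicate 1). In bulk RNA, fewer cells of a type and less RNA per cell cannot be told apart.

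How much of the sequence of each gene is its own differed by cluster. In the GENCODE M21 annotation of GRCm38, the alpha genes spanned chr18:36930184-37187661, the beta genes chr18:37264938-37524479 and the gamma genes chr18:37661793-37841873, all on the plus strand. Transcripts were cut into all windows of 76 bases, the read length, and a window was called unique when no other annotated gene held it on either strand. The median share of unique windows was 42.1% over the 14 alpha genes, 98.8% over the 22 beta genes, 53.7% over the 22 gamma genes and 100% over the 12 non-clustered genes. Every gamma gene overlapped the other 21 gamma genes on its strand and shared 31.5% to 66.8% of its exonic bases with them or with other genes there.

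The beta genes overlapped 3 other annotated genes on their strand, and 20 of the 22 shared none of their exonic bases with those genes. Pcdhb21 and Pcdhb22 overlapped each other and shared 9.67% and 6.88%. The lowest beta value was that of Pcdhb12, with 37.1% unique windows, and 62.6% of its windows were also held by the antisense gene Gm37446, which had 0 counts in every library. Among gamma genes the lowest was Pcdhga10, at 1.59%, of whose windows 54.5% were also held by the processed transcript Gm26672. A deposited value that is not a whole number contains reads divided among genes. Of the values above 0, 2.27% were within 0.005 of a whole number in the gamma cluster, 11.8% in the alpha cluster, 41.1% in the beta cluster and 91.5% among non-clustered genes. Most levels of single gamma and alpha genes therefore hold a division of reads made by RSEM. The authors' annotation release is not given in the sources used here, and these shares apply to GENCODE M21.

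**Figure D1:**
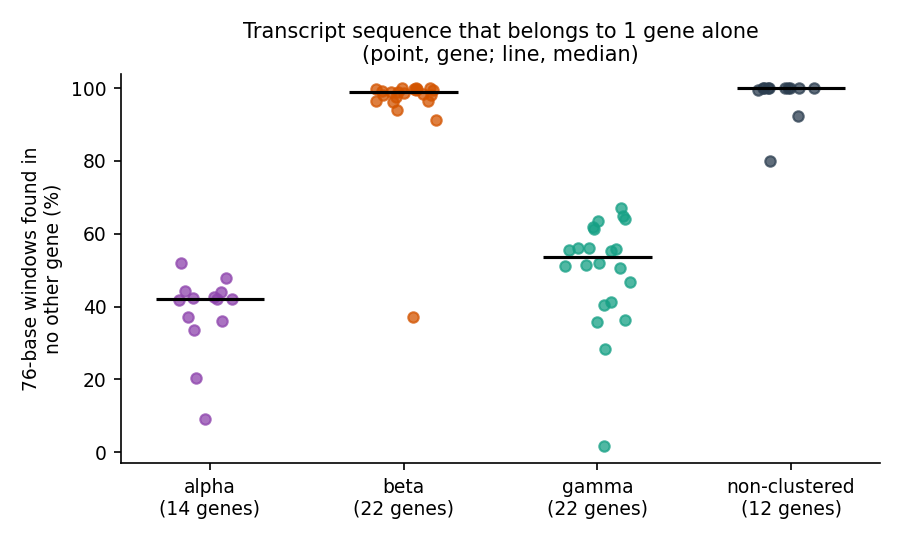
Share of 76-base transcript windows found in no other gene (vertical axis, percent) for each of the 70 genes, grouped by cluster, with points for genes and a line at the median. Beta and non-clustered genes sit near 100%, with Pcdhb12 at 37.1% and Pcdh7 at 79.9% below the others, and no gamma gene lies above 67.1%.

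The 70 genes differed widely in abundance. Gamma genes made up the largest part of protocadherin RNA, with a summed level of 190 ± 16.8 TPM (SD, n = 3) with RvD1 and 169 ± 19.6 TPM with vehicle, followed by the non-clustered genes at 82.3 ± 8.27 and 63.0 ± 6.09 TPM. The beta genes summed to 15.9 ± 7.80 and 9.96 ± 2.84 TPM, and the alpha genes to 0.63 ± 0.30 and 0.61 ± 0.14 TPM. In each group these ranges of mean ± SD stayed apart from one cluster to the next. A few genes carried most of this RNA: Pcdhgc3, Pcdhgc4, Pcdh18 and Pcdh7, with mean levels over the 6 libraries of 79.9, 69.1, 36.7 and 24.0 TPM. The next gene was Pcdhgb6, at 4.51 TPM.

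The comparison of RvD1 with vehicle asked whether treatment of the mouse during the first days of regeneration changed transcript levels in its stem cells. Of the 70 genes, 47 passed the filter on low counts and were tested, namely 1 alpha, 16 beta, 21 gamma and 9 non-clustered genes. Another 15 had some counts and did not pass, and 8 were at 0 in all 6 libraries. With edgeR's quasi-likelihood test and Benjamini-Hochberg adjustment over all 14494 genes tested, 0 of the 47 passed an adjusted p of 0.05, and adjusted p-values ran from 0.971 to 0.999. The same test called 0.0% of all genes tested. At an unadjusted p under 0.05 there were 3 protocadherins (Pcdhb18, Pcdhga10 and Pcdh18), all higher with RvD1, against 3.47% of all genes tested, or 1.83% counted in that direction alone. DESeq2 and limma-voom also called 0 protocadherins.

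Without a call, the direction of the values can still be described. Log2 fold changes were above 0 (higher with RvD1) for 40 of the 47 genes, namely 15 of 16 beta, 16 of 21 gamma and 9 of 9 non-clustered genes and not for the alpha gene, beside 53.5% of all genes tested and 60.4% of the 3956 genes with a mean of 10 to 100 counts. On the log2(TPM + 1) scale, 43 of the 47 and 67.9% of all genes tested lay above 0, with a median of 0.08 over all genes, and without RvD1 replicate 1 in the count fit 33 of 48 and 50.3% did. In the fit of all libraries, the median log2 fold change was 0.32 over the 47 genes, 0.52 over the beta genes, 0.20 over the gamma genes and 0.22 over the non-clustered genes. Over all genes tested it was 0.01, and over those with 10 to 100 counts, a range that held all 16 tested beta genes, it was 0.11. Log2 fold changes above 1 were found for 4 protocadherins, all of the beta cluster, beside 1.12% of all genes tested and 3.64% of those with 10 to 100 counts. None was under −1, beside 0.483% of all genes tested. The groups did not overlap, with RvD1 above vehicle, for 4 tested genes (Pcdhb18, Pcdhb4, Pcdhga7 and Pcdh18), beside 4.77% of all genes tested and 6.4% of those with 10 to 100 counts. RvD1 lay wholly below vehicle for 0 protocadherins, beside 4.84% of all genes tested.

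Markers of other cell types differed in direction between the groups as well. Log2 fold changes were above 0 for 7 of 7 tested Schwann cell and glial genes (median 0.64) and 6 of 6 smooth muscle and pericyte genes (median 0.35), and for 5 of 7 fibro-adipogenic genes (median 0.23). They were below 0 for 11 of 11 tested leukocyte genes (median −0.44), whose summed level was 38.5 to 66.4 TPM with RvD1 and 53.1 to 93.6 TPM with vehicle, and for 8 of 10 endothelial genes (median −0.97). With edgeR 0 of these marker genes were called, and at an unadjusted p under 0.05 there were 2 Schwann cell, 1 smooth muscle, 1 fibro-adipogenic, 3 leukocyte and 0 endothelial genes. Their part in the direction of the protocadherin values was not tested.

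**Figure D2:**
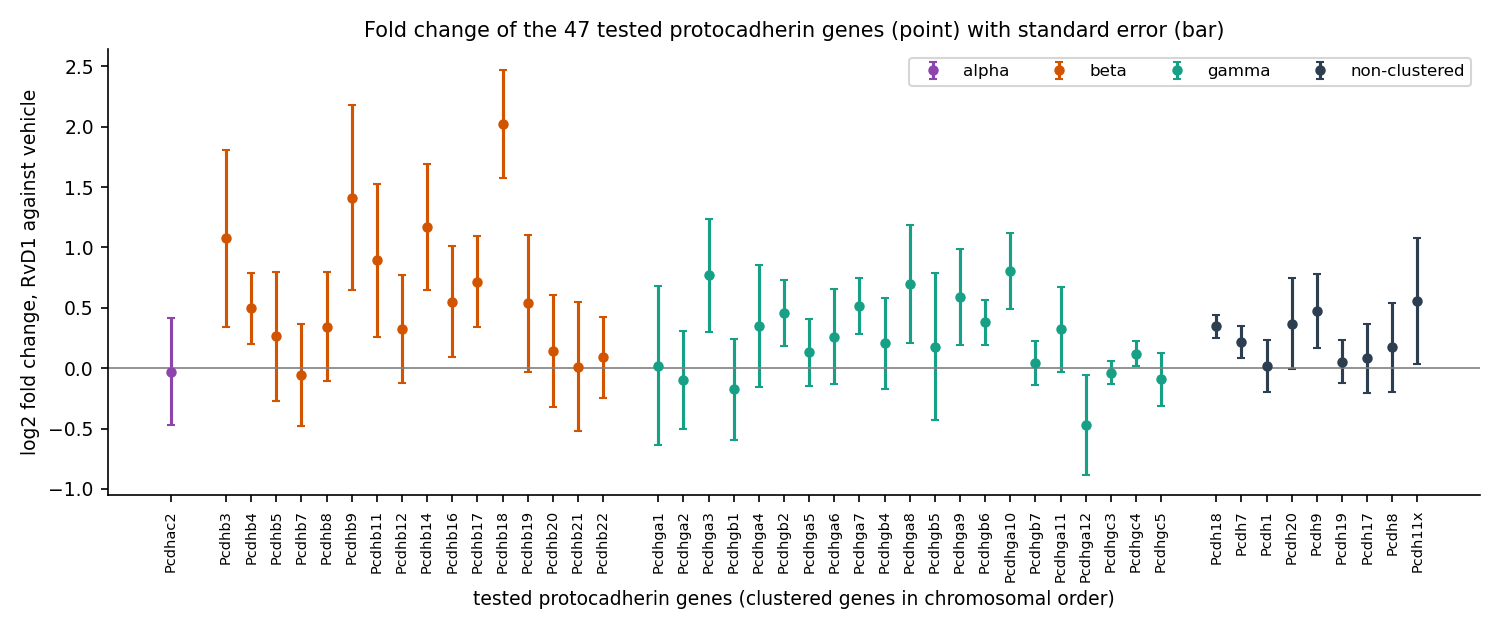
Log2 fold change of RvD1 against vehicle (vertical axis) for the 47 tested protocadherin genes, colored by cluster, with the clustered genes in chromosomal order. Points are edgeR estimates and bars their SE, and the 4 values above 1 are all of beta genes, up to 2.03 for Pcdhb18.

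The summed counts of a cluster do not depend on how reads were divided among its genes. For the beta cluster the sum was 60.0, 27.0 and 26.5 CPM in RvD1 replicates 1 to 3 and 32.1, 23.0 and 20.2 CPM in vehicle replicates 1 to 3. The groups overlapped, and RvD1 replicate 1 held more than any other library. The means were 37.9 ± 19.2 and 25.1 ± 6.24 CPM, a log2 difference of 0.51 (SE 0.44), and without RvD1 replicate 1 that difference was 0.12. For the gamma cluster the sum was 443, 385 and 394 CPM with RvD1 and 428, 382 and 358 CPM with vehicle. These groups overlapped as well, with a log2 difference of 0.07 (SE 0.10).

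The non-clustered genes gave the only summed level of the 4 whose groups did not overlap. Their sum was 240, 207 and 213 CPM with RvD1 and 195, 170 and 180 CPM with vehicle, and the means of 220 ± 17.4 and 182 ± 12.7 CPM gave a log2 difference of 0.27 (SE 0.09). Pcdh18 carried this separation, since the sum of the other 11 genes was 119, 94.7 and 92.6 CPM with RvD1 and 97.4, 85.9 and 84.5 CPM with vehicle, which overlap (0.19, SE 0.13). The alpha genes had few counts, 29 to 64 in all per library, and their sum was 2.90, 1.03 and 2.5 CPM with RvD1 and 2.73, 1.78 and 2.23 CPM with vehicle. The log2 difference of the alpha sums was −0.18 (SE 0.50), an error too wide to place it on either side of 0.

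**Figure D3:**
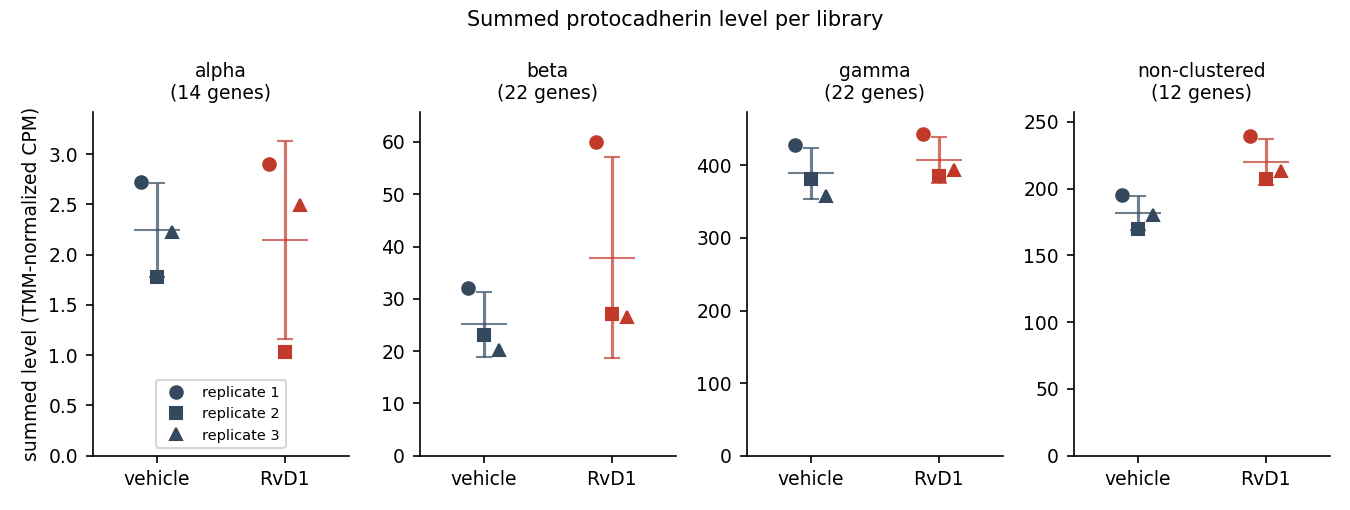
Summed level of the genes of each cluster (vertical axes, TMM-normalized CPM, each starting at 0) in the 3 vehicle and 3 RvD1 libraries. Symbols are libraries by replicate number, and horizontal lines and bars are means and SD. Only the non-clustered panel has all RvD1 values (207 to 240) above all vehicle values (170 to 195), and the beta value of RvD1 replicate 1 (60.0) stands above the other 5.

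Among the beta genes, Pcdhb17 was the most abundant per length, with 2.16 ± 1.10 TPM in the RvD1 group and 1.24 ± 0.40 TPM in the vehicle group. Little is known of single beta protocadherins outside the nervous system, and the proteins lack the cytoplasmic tail encoded by the constant exons of the other clusters. The level of Pcdhb18 was 2.27, 1.5 and 1.22 CPM with RvD1 and 0.31, 0.57 and 0.33 CPM with vehicle. All 3 RvD1 libraries lay above all 3 vehicle libraries, and the log2 fold change was 2.03 (SE 0.45). These values rest on 22 to 50.1 counts per RvD1 library and 5 to 10 per vehicle library. Of the windows of Pcdhb18, 99.9% were unique, and its fold change stayed at 1.74 without RvD1 replicate 1. Its chromosomal neighbors, Pcdhb17 upstream and Pcdhb19 downstream, had log2 fold changes of 0.72 (SE 0.37) and 0.54 (SE 0.57), and both overlapped between groups (0.24 and 0.05 without RvD1 replicate 1).

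The other beta genes with log2 fold changes above 1 overlapped between groups. Pcdhb9 was at 6.63, 1.41 and 0.81 CPM with RvD1 and 1.67, 1.21 and 0.49 CPM with vehicle, so that a single RvD1 library lay above the vehicle range. Its log2 fold change was 1.41 (SE 0.77), and 0.04 without RvD1 replicate 1. Pcdhb14 was at 3.97, 1.76 and 1.5 CPM with RvD1 and 1.05, 0.52 and 1.63 CPM with vehicle (1.17, SE 0.52, and 0.60 without RvD1 replicate 1). Pcdhb3 was at 1.73, 0.64 and 1.00 CPM with RvD1 and 0.56, 0.98 and 0.05 CPM with vehicle (1.08, SE 0.73, and 0.53 without vehicle replicate 3).

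Pcdhb4 had the smallest SE of the 16 tested beta genes. It was at 1.98, 1.85 and 1.94 CPM with RvD1 and 1.32, 1.47 and 1.30 CPM with vehicle, which do not overlap, and its log2 fold change was 0.50 (SE 0.29). The remaining 11 tested beta genes all overlapped between groups. Pcdhb11 (0.89), Pcdhb16 (0.55), Pcdhb8 (0.34), Pcdhb12 (0.32) and Pcdhb5 (0.26) had log2 fold changes with SE of 0.45 to 0.63. Without RvD1 replicate 1 these 5 values were 0.05, 0.10, 0.05, 0.13 and −0.25, and without vehicle replicate 3 that of Pcdhb12 was 0.03. Pcdhb20 (0.14), Pcdhb22 (0.09), Pcdhb21 (0.01) and Pcdhb7 (−0.06) lay closer to 0, with SE of 0.33 to 0.53. Pcdhb2, Pcdhb6, Pcdhb10, Pcdhb13 and Pcdhb15 did not pass the filter and stayed at or under 1.33 CPM in every library. Of these, Pcdhb6 (0.86, 0.38 and 0.44 CPM with RvD1 against 0.19, 0.12 and 0.34 CPM with vehicle) and Pcdhb13 (2 to 5 counts against 0 to 1) had groups that did not overlap. The shares of genes without overlap given above cover only genes that passed the filter, so none stands beside these. Pcdhb1 was at 0 in every library, which at 3 counts allows up to 0.107 to 0.186 CPM.

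RvD1 replicate 1 had the highest level of the 6 libraries for 15 of the 16 tested beta genes, beside 30.6% of all genes tested and 36.3% of those with 10 to 100 counts. The exception was Pcdhb22. The same was true of 10 of 21 gamma genes and 7 of 9 non-clustered genes. Without that library, 13 of 17 tested beta genes had log2 fold changes above 0, with a median of 0.10, and 2 lay above 1. In the same library the fibro-adipogenic, smooth muscle and Schwann cell marker lists had their highest sums. Of the 12 myogenic markers, 6 were highest there, among them Chodl at 123 TPM against 10.8 to 27.5 TPM elsewhere. Another 5 were highest in RvD1 replicate 3 and Cxcr4 in vehicle replicate 1. The summed myogenic level was also highest in RvD1 replicate 3 (4281 TPM against 3860 TPM in RvD1 replicate 1). The part of these markers in the beta values was not tested.

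**Figure D4:**
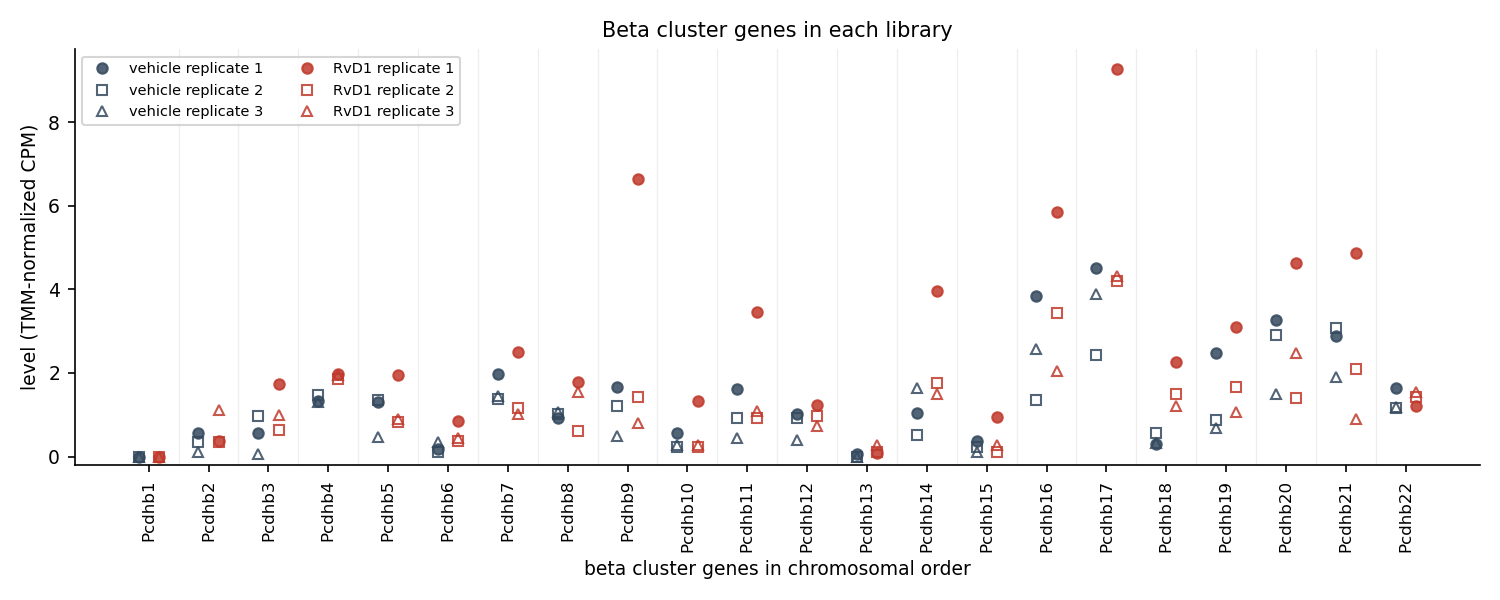
Level of the 22 beta cluster genes in chromosomal order (horizontal axis) in each library (vertical axis, TMM-normalized CPM), with vehicle in blue and RvD1 in red and symbols for replicates. RvD1 replicate 1 (filled red circles) is the highest point for 15 of the 16 tested genes, reaching 9.28 CPM for Pcdhb17.

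The gamma cluster was dominated by its C-type genes, the last of the cluster. Pcdhgc3 was at 229, 210 and 205 CPM with RvD1 and 243, 213 and 206 CPM with vehicle. The libraries of both groups intermingled, and the log2 fold change was −0.04 (SE 0.10), with a range of −0.23 to 0.15 at 2 SE and a value of 0.055 on the log2(TPM + 1) scale. Pcdhgc4, the gamma isoform needed for neuronal survival in mice, was at 106, 97.3 and 102 CPM with RvD1 and 102, 94.6 and 83.7 CPM with vehicle (log2 fold change 0.12, SE 0.10). Pcdhgc5 was at 6.50 ± 1.47 and 6.94 ± 0.30 CPM (−0.09, SE 0.22). Of the windows of Pcdhgc3, 27.0% were also held by the antisense gene BC037039, which had 45.6 to 81.8 counts per library against a mean of 4346 for Pcdhgc3.

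The share of gamma counts assigned to C-type genes was 77.5%, 81.5% and 79.3% with RvD1 and 82.4%, 82.5% and 82.9% with vehicle. Every RvD1 library was below every vehicle library, with means of 79.4 ± 1.99% and 82.6 ± 0.24%. The A-type share was 11.4 ± 1.81% with RvD1 and 9.19 ± 0.26% with vehicle, and the B-type share 9.22 ± 0.44% and 8.21 ± 0.27%, both without overlap. The 3 shares are parts of 1 whole, so these are not separate differences. The closest A-type shares were 9.72% in RvD1 replicate 2 and 9.48% in vehicle replicate 2. Of these, Pcdhga10, with 1.59% unique windows, made up 2.28% and 1.75% of gamma counts. Without that gene the A-type shares would overlap. Levels, in contrast to shares, overlapped for all 3 types. The log2 difference of the summed level was 0.36 (SE 0.21) for A-type, 0.23 (SE 0.13) for B-type and 0.01 (SE 0.09) for C-type genes. The types share constant exons, and RSEM assigned the reads from shared sequence to one type or another.

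**Figure D5:**
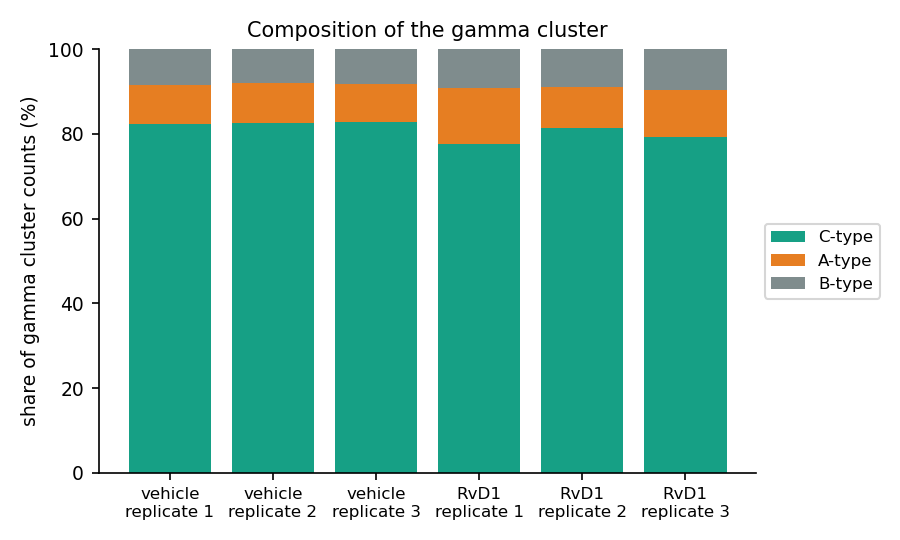
Share of gamma cluster counts (vertical axis, percent) assigned to C-type, A-type and B-type genes in each of the 6 libraries. C-type genes hold 82.4% to 82.9% in the vehicle libraries and 77.5% to 81.5% in the RvD1 libraries.

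Among the A-type and B-type genes, Pcdhga7 was at 5.72, 6.42 and 6.17 CPM with RvD1 and 4.63, 3.21 and 4.97 CPM with vehicle. Its groups did not overlap, and the log2 fold change was 0.51 (SE 0.23). Pcdhga10 was at 10.8, 8.78 and 6.13 CPM with RvD1 and 4.94, 6.66 and 3.08 CPM with vehicle, which overlap (0.80, SE 0.32). As 1.59% of its windows were unique, its level rests almost wholly on RSEM's division of shared reads. Gm26672, which also held 54.5% of its windows, was assigned 1.55 to 11.5 counts per library, against 56.7 to 246 for Pcdhga10. Pcdhgb6, the most abundant of these genes, was at 15.6, 12.5 and 15.4 CPM with RvD1 and 13.4, 9.14 and 10.9 CPM with vehicle, which overlap (0.38, SE 0.19).

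The other 15 tested A-type and B-type genes overlapped between groups and had SE of 0.18 to 0.66. Log2 fold changes were 0.77 for Pcdhga3, 0.69 for Pcdhga8, 0.59 for Pcdhga9, 0.46 for Pcdhgb2, 0.35 for Pcdhga4 and 0.32 for Pcdhga11. They were 0.26 for Pcdhga6, 0.20 for Pcdhgb4, 0.18 for Pcdhgb5, 0.13 for Pcdhga5, 0.04 for Pcdhgb7 and 0.02 for Pcdhga1. Values under 0 were those of Pcdhga2 (−0.10), Pcdhgb1 (−0.18) and Pcdhga12 (−0.47). Leaving out a single library moved several of these values, to 0.28 for Pcdhga3 (RvD1 replicate 1), 0.28 for Pcdhga8 (vehicle replicate 2), 0.25 for Pcdhga9 (RvD1 replicate 3) and 0.26 for Pcdhgb2 (vehicle replicate 3). Pcdhgb8 did not pass the filter, at 0.19 to 0.73 CPM. All 22 gamma genes had at least 1 count in every library.

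In the alpha cluster a single gene was tested. Pcdhac2, one of its C-type genes, was at 2.42, 0.93 and 2.37 CPM with RvD1 and 2.73, 1.45 and 1.60 CPM with vehicle. The groups overlapped, with a log2 fold change of −0.03 (SE 0.44), and it held 89.2 ± 5.86% of the alpha counts with RvD1 and 84.5 ± 14.2% with vehicle. The other C-type gene, Pcdhac1, reached 0.32 CPM in RvD1 replicate 1 and was at 0 in 4 libraries. Of the 12 remaining alpha identifiers, 7 were at 0 in all libraries, and those with counts stayed at or under 0.36 CPM.

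Among the non-clustered genes, Pcdh18, a delta2 protocadherin, was the most abundant. It was at 121, 112 and 121 CPM with RvD1 and 97.9, 83.9 and 96.0 CPM with vehicle. Every RvD1 library was above every vehicle library, and the log2 fold change was 0.35 (SE 0.10). Per length its level was 42.9 ± 3.39 TPM with RvD1 and 30.6 ± 3.32 TPM with vehicle. The gene lies on chr3:49743296-49757325 on the minus strand, overlaps no other annotated gene, and all of its windows were unique, so its level does not depend on reads shared with others. Leaving out each library in turn gave log2 fold changes of 0.28 to 0.39.

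Pcdh7 (chr5:57717967-58133230, plus strand), a delta1 protocadherin whose tail binds protein phosphatase 1, was at 77.9, 58.7 and 61.2 CPM with RvD1 and 63.2, 53.6 and 53.7 CPM with vehicle. The groups overlapped, with a log2 fold change of 0.22 (SE 0.13), and 0.08 without RvD1 replicate 1. Of its windows, 20.1% were also held by 4932441J04Rik, which had 1 to 17.1 counts per library. The summed delta2 genes were at 138, 129 and 133 CPM with RvD1 and 113, 97.7 and 111 CPM with vehicle, without overlap (0.32, SE 0.07), and Pcdh18 made up most of that sum. The summed delta1 genes were at 79.4 ± 11.2 and 68.6 ± 5.11 CPM, with overlap (0.20, SE 0.13).

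The other non-clustered genes overlapped between groups. Pcdh9 (delta1) was at 6.75, 3.32 and 3.83 CPM with RvD1 and 3.28, 3.62 and 3.10 CPM with vehicle (log2 fold change 0.47, SE 0.31, and 0.10 without RvD1 replicate 1). Pcdh20 was at 8.42, 6.71 and 4.66 CPM with RvD1 and 7.93, 4.66 and 2.82 CPM with vehicle (0.37, SE 0.37, and 0.07 without vehicle replicate 3). Log2 fold changes of Pcdh11x (0.56, SE 0.52, and 0.10 without RvD1 replicate 1), Pcdh8 (0.17, SE 0.37), Pcdh17 (0.08, SE 0.29), Pcdh19 (0.05, SE 0.18) and Pcdh1 (0.02, SE 0.22) were similar to or smaller than their errors. Pcdh8 marks paraxial mesoderm before somites form, and Pcdh19 and Pcdh17 are delta2 genes of the developing brain. The genes that did not pass the filter were Pcdh10 (delta2), Pcdh15, a part of the tip links of inner ear hair cells, and Pcdh12.

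Pcdh12, which is expressed in vascular endothelium, had 6, 5 and 6 counts with RvD1 and 1, 4 and 28 counts with vehicle. A single library, vehicle replicate 3, held most of them. Of 10 endothelial markers, 6 also had their highest values there, among them Pecam1, Cdh5 and Tie1 at 3.61, 1.02 and 1.29 TPM, while Tek, Vwf and Esam were highest in RvD1 replicate 1 and Kdr in vehicle replicate 1. Tie1 was at 0 in RvD1 replicate 3. The sum of the 10 was 17.8 to 25.0 TPM with RvD1 and 10.9 to 32.6 TPM with vehicle, and the part of these markers in the Pcdh12 counts was not tested.

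Promoters of clustered protocadherins carry a short conserved element with the core CGCT, near which the insulator protein CTCF binds. The same letters were counted in the 250 bases before the start of the genes, read as CGCT or its reverse complement AGCG, with overlapping matches counted apart. No alpha, beta or gamma gene was matched to a RefSeq promoter (GRCm38.p6), so the letters were not counted in clustered promoters. RefSeq promoters were matched for 9 of the 12 non-clustered genes. In these full windows all 9 held at least 1 match, beside 57.9% of 27025 genes with a promoter in the same table. The Pcdh15 window and the part of the Pcdh7 window that held its 3 matches lay inside the gene as GENCODE annotates it, and the 136 bases of the Pcdh7 window before the annotated gene held 0. The tested genes with most and fewest matches in the full window, Pcdh18 and Pcdh20, are shown, in capitals where the letters match. They show how far genes of similar direction differ in the count of these matches. The Pcdh18 window, at chr3:49757326-49757566 on the minus strand, was shortened to 241 bases to stay outside the annotated gene and held 7 matches, and the Pcdh20 window, at chr14:88471397-88471646 on the minus strand, held 1.
Pcdh18: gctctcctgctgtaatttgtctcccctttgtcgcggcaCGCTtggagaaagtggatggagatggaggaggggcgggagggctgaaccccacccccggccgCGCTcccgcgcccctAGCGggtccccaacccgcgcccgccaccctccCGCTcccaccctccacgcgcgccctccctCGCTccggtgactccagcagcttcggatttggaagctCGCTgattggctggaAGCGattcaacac
Pcdh20: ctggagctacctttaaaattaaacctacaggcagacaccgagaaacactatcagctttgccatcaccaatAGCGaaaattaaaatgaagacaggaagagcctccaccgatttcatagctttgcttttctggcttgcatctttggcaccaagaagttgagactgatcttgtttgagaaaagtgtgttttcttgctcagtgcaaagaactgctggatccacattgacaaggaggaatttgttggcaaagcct
Pcdh18, with 7 matches, had a log2 fold change of 0.35 and Pcdh20, with 1, had 0.37. A match says only that the letters are present.

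Genes that act with protocadherins were read from lists drawn up for this family. Of 17 regulators of chromatin looping and silencing at clustered promoters, which include Ctcf, the cohesin subunits and Smchd1, 11 had log2 fold changes above 0 and 6 below, from −0.18 for Smc1a to 0.19 for Mau2, and edgeR called 0 (0 at an unadjusted p under 0.05). Of 18 genes for intracellular partners and for the proteases that cleave protocadherins, 9 lay above 0 and 9 below, from −0.19 for Aph1a, a γ-secretase subunit, to 0.34 for Cyfip2, of the WAVE complex, and 0 were called (0 at an unadjusted p under 0.05). Among 41 other genes of the cadherin superfamily, 21 were tested, 12 lay above 0 and 9 below, and 0 were called (2 at an unadjusted p under 0.05). The most abundant of these was Cdh15, the M-cadherin of myogenic cells, with 331 to 423 TPM in RvD1 libraries and 300.3 to 372 TPM in vehicle libraries (log2 fold change 0.06, SE 0.11). The ends of that range were Cdh5, the endothelial cadherin (−1.13, SE 0.95), and Cdh19, a Schwann cell cadherin (0.87, SE 0.27).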

How the data were processed

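Libraries were made from sorted MuSC RNA with SMART-Seq v4 and Nextera XT and sequenced as 76-base single-end reads without strand. Per the labels and the submitters' processing notes, the authors aligned reads to mm10 with STAR 2.5.0a and quantified genes with RSEM, depositing expected counts, TPM and FPKM for each library. The RSEM version and the annotation release are not given in the sources used here. A total of 1 repeated header line was removed. Expected counts, as deposited by the authors, were rounded to whole numbers and tested with edgeR 4.0.16 (TMM factors, filterByExpr by group, quasi-likelihood test, Benjamini-Hochberg over 14494 genes, threshold 0.05) in R 4.3.3. Deposited TPM and FPKM, normalized by the authors for transcript length and depth, served for levels between genes and for alternatives on log2(TPM + 1), log2(TPM + 0.1) and log2(FPKM + 1) in limma 3.58.1. Other alternatives were RLE factors, library totals, no filter, a mean of at least 10 counts, robust estimation, DESeq2 1.42.0, limma-voom with and without sva 3.50.0 (1 surrogate variable), a replicate block, and leaving out each library. The edgeR step, checked on simulated data with 200 of 14310 genes changed by 2 on the log2 scale, recovered 200 with 11 false calls. The simulated spread was the same for every gene, and only genes with higher counts were changed. The check therefore does not measure how often smaller differences, or those of genes with few counts, would be called.

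Groups came from the sample labels. The members and the lists were chosen with earlier results of these data known. Every protocadherin that passed the filter is named with a value, and in each cluster the one with the highest mean TPM. Summed levels add the expected counts of all genes of a cluster before scaling. The SE of a single gene was derived from its log2 fold change and the F statistic of the edgeR test. The SE of a summed level came from the variance of log2 CPM within each group, so these SE are not alike. Log2 fold changes are RvD1 against vehicle. The edgeR p-values set the difference between groups against the spread between the 3 mice of each group, estimated with information from all genes tested.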

Additional observations from a re-analysis of the deposited data

How the results depend on the processing

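The number of protocadherins called was 0 under all 18 alternatives, 6 of which left out a library. The smallest adjusted p of any protocadherin was 0.168, with limma-voom after removal of 1 surrogate variable, and 0.204 with edgeR and no filter, a fit that tested 62 protocadherins and called 12 genes in all. With all libraries kept, the number with a log2 fold change above 0 ran from 38 of 47 (limma-voom) to 51 of 62 (no filter). The main fit had 40 of 47. When a library was left out, the number ran from 33 (of 48 tested, without RvD1 replicate 1) to 42. Leaving out a library in turn moved the log2 difference of the beta sum between 0.12 and 0.71, the gamma sum between 0.01 and 0.14, the non-clustered sum between 0.21 and 0.33 and the alpha sum between −0.46 and 0.28. The alpha direction turned without RvD1 replicate 2. The gamma sum without Pcdhgc3 gave 0.19, and the non-clustered sum of TPM gave 0.39. The alpha sum without Pcdhac2 could not be given as a log2 difference because vehicle replicate 1 then held 0 counts.

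Of 846 values of single genes over these alternatives, 789 kept their direction and 0 passed the threshold. Among settings that kept all libraries, the direction turned for Pcdhac2 with library totals (0.0074), log2(TPM + 1) (0.020), log2(TPM + 0.1) (0.018) and log2(FPKM + 1) (0.0050). It turned for Pcdhb21 with limma-voom (−0.22), with the surrogate variable removed (−0.41), with log2(TPM + 1) (−0.020), log2(TPM + 0.1) (−0.16) and log2(FPKM + 1) (−0.020). Pcdhgc3 turned with log2(TPM + 1) (0.055), log2(TPM + 0.1) (0.056) and log2(FPKM + 1) (0.0082), and Pcdhgb5 with limma-voom (−0.11) and the surrogate variable removed (−0.24). That removal also turned Pcdhb20 (−0.16) and Pcdh17 (−0.0038), and log2(TPM + 1) turned Pcdhb7 (0.0014) and Pcdhga2 (5.8e-05). Leaving out a library turned 22 of the 47 genes at least once. The lowest and highest values were −0.25 to 0.31 for Pcdhac2, −0.41 to 0.47 for Pcdhb20, −0.77 to 0.41 for Pcdhb21, −0.58 to 0.16 for Pcdhb7, −0.0018 to 0.25 for Pcdhb22 and −0.25 to 0.50 for Pcdhb5. In the gamma cluster they were −0.087 to 0.035 for Pcdhgc3, −0.27 to 0.054 for Pcdhgc5, −0.042 to 0.12 for Pcdhgb7, −0.11 to 0.40 for Pcdhga5, −0.13 to 0.61 for Pcdhga11, −0.25 to 0.54 for Pcdhga6, −0.54 to 0.33 for Pcdhgb1, −0.0028 to 0.53 for Pcdhgb4, −0.20 to 0.83 for Pcdhga4, −0.27 to 0.77 for Pcdhgb5, −0.49 to 0.67 for Pcdhga1 and −0.31 to 0.13 for Pcdhga2. Among non-clustered genes they were −0.075 to 0.17 for Pcdh1, −0.018 to 0.098 for Pcdh19, −0.22 to 0.29 for Pcdh17 and −0.14 to 0.35 for Pcdh8. The cause was not tested. On the TPM scales the median of all genes tested was also above 0, at 0.08 with a pseudocount of 1 and 0.09 with 0.1.

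Replicate numbers are shared between groups, and nothing states that mice were paired. The correlation of same-numbered libraries' deviations was 0.310, −0.001 and 0.126, so that not every pair passed 0.1, and while RvD1 replicates 1 and 3 correlated best with their own numbers, RvD1 replicate 2 did not. With a replicate block, 39 of 47 protocadherins had log2 fold changes above 0, 0 were called, the smallest adjusted p was 0.791 and Pcdhb21 turned to −0.22. A block cannot alter the differences of the summed levels in this balanced design. The alpha cluster held few counts, 29 to 64 per library, and 15 genes of all clusters had counts and did not pass the filter. The part of depth in this was not tested.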
